A study of Homo sapiens with 6 samples.

Results

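The genes listed under the name zinc finger cluster on 19q13.41 are a run of neighbouring genes that encode C2H2 zinc finger proteins. The band is part of that name and was not checked against the position of each member. The 38 members, ZNF577 to ZNF331, were taken as the rows of the count table that carry the listed symbols, out of 16934 genes in the table. They lie between positions 51804816 and 53580269 of chromosome 19 (GRCh38, GENCODE 29), a stretch of 1775 kb, with 16 on the plus strand and 22 on the minus strand. All 38 had a row, and 35 had enough counts for a test. The stretch was selected on its counts in the 2 groups compared here, so the members' levels and fold changes are a description. Calls of members by the fit across all genes are counted beside the share of all genes called, and are not evidence for the members.

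Zinc finger proteins of this kind bind DNA through arrays of C2H2 fingers, and many carry a KRAB domain that recruits the co-repressor TRIM28. TRIM28 in turn brings the histone methyltransferase SETDB1, the NuRD complex, HP1 proteins and DNA methyltransferases, and much of this machinery silences transposable elements. The genes arose by repeated tandem duplication, so neighbours in a cluster are often close paralogs.

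RNA was sequenced from A375, an established human melanoma cell line, after CRISPR-Cas9 editing with an sgRNA against POLK (3 libraries) or with a non-targeting control sgRNA (3 libraries). POLK encodes DNA polymerase kappa, a translesion polymerase. Both groups were grown in the same supplemented medium and edited with the same Alt-R system, and no drug is named for either. Whether a group's libraries are separate cultures is not stated, and their column names share 1 stem per group, so each group may be 1 edited population. In that case p-values measure only the spread between libraries, which may be technical, and the effect of the POLK sgRNA and differences that already existed between 2 populations cannot be told apart.

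Total counts ran from 42852645 to 56891905 per library. POLK itself had 19.2, 17.2 and 18.1 CPM (counts per 1000000, on TMM-scaled library sizes) in the POLK sgRNA libraries, against 23.4, 24 and 22.4 CPM in the control libraries. All 3 POLK sgRNA libraries lay below all control libraries, with a log2 fold change of -0.36 ± 0.05 (SE; Benjamini-Hochberg adjusted p = 7.9e-08, edgeR's quasi-likelihood test). Chi-square divided by its degrees of freedom was 1.97 to 4.01 between libraries of the same group, which is more than counting noise, and 62.7 to 76.6 across groups. Of 13930 genes tested, 32.8% were higher and 31.6% lower at an adjusted p under 0.05, so that 64.3% were called in either direction. The 11 melanoma and melanocyte markers summed to 2696 to 2780 CPM in POLK sgRNA libraries and 2469 to 2486 CPM in control libraries, led by SOX10. TYR and MLANA were near 0 in both groups, and PMEL was at 0.688 CPM in POLK sgRNA libraries and 0.402 CPM in control libraries. Of the 11, 6 were called higher and 2 lower. The lower ones were MCAM (log2 fold change -0.09, adjusted p = 0.00046, edgeR) and PRAME (-0.10, adjusted p = 0.00041, edgeR). Summed markers of other cell types also differed between the groups. The 4 leukocyte markers in the table summed to 58 to 60.2 CPM in POLK sgRNA libraries and 17.3 to 17.6 CPM in control libraries, nearly all from CD68 and LYZ, with PTPRC and CD3E near 0. The 5 fibroblast markers summed to 26.8 to 27 CPM and 15.5 to 15.9 CPM, the 4 epithelial markers to 7.27 to 8.94 CPM and 4.43 to 5.15 CPM, and the 3 endothelial markers to 2.5 to 2.8 CPM and 1.59 to 2.03 CPM in POLK sgRNA and control libraries. Single markers within these sums went the other way: CDH5 was at 0.0343 CPM in POLK sgRNA libraries and 0.361 CPM in control libraries (log2 fold change -3.35, adjusted p = 2.4e-06, edgeR), and COL1A2 at 0.333 CPM and 0.717 CPM (log2 fold change -1.06, adjusted p = 0.014, edgeR). The part of these differences in the results on the cluster was not tested. In bulk RNA, a change in the share of cells that express a gene and a change in its RNA per cell cannot be told apart.

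The cluster as a whole carried more RNA in cells edited with the POLK sgRNA. The 38 members together reached 218, 215 and 210 CPM in the POLK sgRNA libraries, against 164, 163 and 163 CPM in the control libraries. The groups were well apart, at 214 ± 4.04 CPM and 163 ± 0.577 CPM (SD, n = 3 each). Members made up 2.71% ± 0.0557 of the CPM of all genes named ZNF with a number in POLK sgRNA libraries and 2.11% ± 0.01 in control libraries. All 35 members that passed the filter had a log2 fold change above 0, as did 51.3% of all genes tested. That all 35 did so depends in part on the filter. ZNF610, with 5 counts in POLK sgRNA libraries and 14 in control libraries, was lower and did not pass. ZNF415, with 0, 3 and 3 counts in control libraries, passed only through its POLK sgRNA libraries. At an adjusted p under 0.05, 31 were called higher and 0 lower by edgeR's quasi-likelihood test, where 32.8% of all genes tested were called higher and 31.6% lower. At an unadjusted p under 0.05 the edgeR counts were again 31 and 0, and the share of all genes was not counted there. At an adjusted p under 0.05 the counts were 27 and 0 by DESeq2 and 30 and 0 by limma-voom. Both tools called fewer of all genes higher, and fewer lower, than edgeR did. Because the contrast was used to choose the members, nothing further is read from these counts. In 29 of the 35, all POLK sgRNA libraries lay above all control libraries, as in 34.6% of all genes tested, and in 0 all lay below, as in 33.1% of all genes tested. The groups overlapped for ZNF649, ZNF350, ZNF615, ZNF614, ZNF701 and ZNF816. The median log2 fold change was 0.40 (quartiles 0.30 and 0.73), beside 0.01 over all genes tested. By size, 5 members were at least 2-fold higher, 7 were 1.5-fold to 2-fold higher and the rest were less than 1.5-fold higher. Replicate spread was small beside most of these differences, with a median coefficient of variation per member of 6.32% in POLK sgRNA libraries and 6.02% in control libraries.

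**Figure D1:**
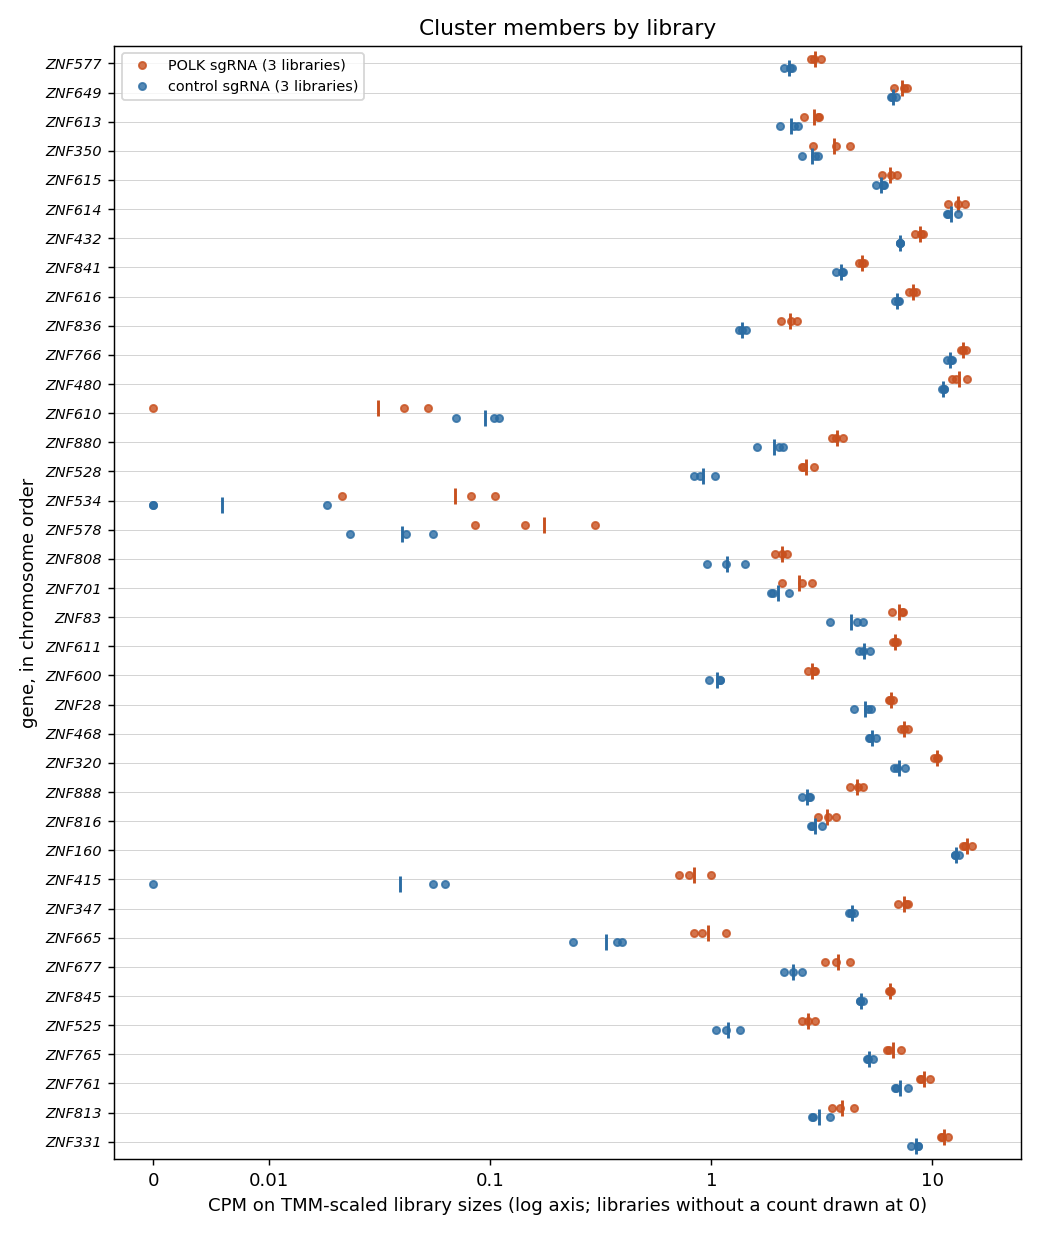
CPM of each of the 38 members in the 3 POLK sgRNA libraries and the 3 control libraries, on a log axis, with genes in chromosome order; points are libraries, vertical ticks are group means, and a library without a count is drawn at 0. POLK sgRNA libraries sit to the right of control libraries for most members, ZNF415 shows the widest gap, and ZNF610 is the member with its POLK sgRNA libraries on the left.

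ZNF415 had the largest fold change of the cluster. It encodes a zinc finger protein whose isoforms were reported to repress AP-1 and p53 reporter activity. Its level was 0.998, 0.791 and 0.714 CPM in POLK sgRNA libraries, from 57, 37 and 35 counts, against 0, 0.0549 and 0.0625 CPM in control libraries, from 0, 3 and 3 counts. It was close to undetected in control cells and low but present in every POLK sgRNA library. The log2 fold change was 4.27 ± 0.42 (SE), a size that rests on 6 control counts and was 3.79 without control library 1. The RefSeq promoter window of ZNF415 (GRCh38.p14, 250 bases before to 50 after the annotated start) is printed because the gene moved furthest, at chr19:53132861-53133160 on the minus strand.
ZNF415: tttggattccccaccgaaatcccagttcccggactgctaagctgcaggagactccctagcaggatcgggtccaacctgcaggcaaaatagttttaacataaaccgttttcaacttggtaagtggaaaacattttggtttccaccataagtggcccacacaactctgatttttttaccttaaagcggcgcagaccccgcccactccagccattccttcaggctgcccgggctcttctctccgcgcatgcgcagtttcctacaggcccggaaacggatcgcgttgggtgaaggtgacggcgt
All letters are lower case since the window holds no copy of the 7-base word, CCGGAAG, that is described for other members further on. Shortly after the annotated start it does hold a near match, ccggaaa, which differs from the word in the last base.

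ZNF528, ZNF665, ZNF600 and ZNF525 were the other members at least 2-fold higher, and each had its POLK sgRNA libraries clear of the control libraries. ZNF665 had 0.91, 0.833 and 1.16 CPM in POLK sgRNA libraries, against 0.373, 0.238 and 0.396 CPM in control libraries, a log2 fold change of 1.54 ± 0.25 (SE). ZNF528 had 2.61, 2.56 and 2.9 CPM in POLK sgRNA libraries, against 0.887, 1.04 and 0.833 CPM in control libraries, a log2 fold change of 1.53 ± 0.15. Every POLK sgRNA library of either gene was above every control library by more than the spread within the groups. ZNF600 had 2.75, 2.95 and 2.9 CPM in POLK sgRNA libraries, against 1.1, 1.1 and 0.979 CPM in control libraries, a log2 fold change of 1.43 ± 0.14. ZNF525 had 2.94, 2.56 and 2.74 CPM in POLK sgRNA libraries, against 1.05, 1.17 and 1.35 CPM in control libraries, a log2 fold change of 1.20 ± 0.14. These 4 genes were all low in control cells, with no control library above 1.35 CPM. Just under 2-fold came ZNF880, with 3.94, 3.5 and 3.67 CPM in POLK sgRNA libraries, against 2.03, 1.61 and 2.1 CPM in control libraries, a log2 fold change of 0.97 ± 0.12. No library of its groups overlapped.

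At the other end, 6 members had log2 fold changes of 0.11 to 0.20. ZNF614 had 14.1, 13.1 and 11.8 CPM in POLK sgRNA libraries, against 13, 11.6 and 11.7 CPM in control libraries, a log2 fold change of 0.11 ± 0.06 (SE). ZNF649, reported to repress serum response element and AP-1 reporters, had 7.44, 6.73 and 7.68 CPM in POLK sgRNA libraries, against 6.51, 6.57 and 6.87 CPM in control libraries, a log2 fold change of 0.13 ± 0.07. ZNF615 had 6.91, 6.5 and 5.9 CPM in POLK sgRNA libraries, against 6.02, 5.95 and 5.54 CPM in control libraries, a log2 fold change of 0.14 ± 0.08. For these 3 genes the groups overlapped. ZNF816 had 3.36, 3.65 and 3.04 CPM in POLK sgRNA libraries, against 3.15, 2.86 and 2.83 CPM in control libraries, a log2 fold change of 0.19 ± 0.11, and its groups overlapped as well. ZNF160, a KRAB zinc finger gene reported to repress TLR4 in intestinal epithelial cells, had 15.1, 13.7 and 14 CPM in POLK sgRNA libraries, against 12.7, 12.6 and 13.2 CPM in control libraries, a log2 fold change of 0.15 ± 0.06. ZNF766 had 13.7, 14.2 and 13.5 CPM in POLK sgRNA libraries, against 11.6, 12.3 and 12.1 CPM in control libraries, a log2 fold change of 0.20 ± 0.06. The groups of ZNF160 and ZNF766 did not overlap, although their fold changes were as small as those of the overlapping genes. TLR4, the reported target of ZNF160, had 69.7 ± 3.5 CPM in POLK sgRNA libraries and 70 ± 3.1 CPM in control libraries (SD, n = 3 each), a log2 fold change of -0.01 (Benjamini-Hochberg adjusted p = 0.90, edgeR's quasi-likelihood test).

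Several members have a described function. ZNF350, also called ZBRK1, binds BRCA1 and was reported to repress GADD45A. It had 4.24, 2.89 and 3.67 CPM in POLK sgRNA libraries, against 3.03, 2.95 and 2.56 CPM in control libraries, a log2 fold change of 0.35 ± 0.12 (SE). POLK sgRNA library 2 lay within the range of the control libraries, and the value was 0.21 without POLK sgRNA library 1 and 0.48 without POLK sgRNA library 2. BRCA1 was higher, at 79.4 ± 3.3 CPM in POLK sgRNA libraries and 69.5 ± 3.3 CPM in control libraries (SD, n = 3 each; log2 fold change 0.20, Benjamini-Hochberg adjusted p = 1.5e-05, edgeR's quasi-likelihood test). GADD45A was at 46.4 ± 0.72 CPM in POLK sgRNA libraries and 46.9 ± 0.45 CPM in control libraries, a log2 fold change of -0.01 (adjusted p = 0.71 by the same edgeR test).

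ZNF808, a silencer of MER11 transposable elements whose loss causes failure of pancreas development in humans, had 1.94, 2.09 and 2.2 CPM in POLK sgRNA libraries, against 1.17, 0.952 and 1.42 CPM in control libraries. All POLK sgRNA libraries lay above the control libraries, with a log2 fold change of 0.83 ± 0.15 (SE). ZNF677, which is often silenced by promoter methylation in carcinomas, had 4.24, 3.68 and 3.27 CPM in POLK sgRNA libraries, against 2.57, 2.33 and 2.12 CPM in control libraries, a log2 fold change of 0.68 ± 0.12. Again no library of the groups overlapped. ZNF331, an imprinted gene first found at chromosome breakpoints of thyroid adenomas and the last of the run, had 11, 11.8 and 10.9 CPM in POLK sgRNA libraries, against 8.01, 8.61 and 8.64 CPM in control libraries, a log2 fold change of 0.41 ± 0.06. ZNF83 had 6.58, 7.33 and 7.31 CPM in POLK sgRNA libraries, against 4.55, 4.87 and 3.44 CPM in control libraries, a log2 fold change of 0.71 ± 0.10. Control library 3 was the lowest for ZNF83, and the value was 0.57 without it and 0.83 without control library 2.

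The remaining 18 members lay between these values. ZNF888 (4.57 ± 0.31 CPM in POLK sgRNA libraries and 2.71 ± 0.13 CPM in control libraries, SD, n = 3 each), ZNF347 (7.42 ± 0.42 and 4.31 ± 0.12 CPM) and ZNF836 (2.26 ± 0.18 and 1.38 ± 0.054 CPM) had log2 fold changes of 0.75, 0.78 and 0.72. Log2 fold changes of 0.43 to 0.57 were seen for ZNF320, ZNF468, ZNF611 and ZNF845. Of these, ZNF320 was the most abundant, at 10.4 ± 0.24 CPM in POLK sgRNA libraries and 7.03 ± 0.44 CPM in control libraries. ZNF845 had tight groups, at 6.35, 6.41 and 6.49 CPM in POLK sgRNA libraries, against 4.71, 4.72 and 4.85 CPM in control libraries. Values from 0.29 to 0.40 belonged to ZNF577, ZNF613, ZNF432, ZNF841, ZNF28, ZNF765, ZNF761 and ZNF813, none with overlapping groups. Among these 8, mean levels ran from 2.91 CPM (ZNF613) to 9.12 CPM (ZNF761) in POLK sgRNA libraries and from 2.24 CPM (ZNF577) to 7.15 CPM (ZNF432) in control libraries. ZNF701 had 2.56, 2.86 and 2.08 CPM in POLK sgRNA libraries, against 1.91, 2.25 and 1.87 CPM in control libraries, and its log2 fold change of 0.30 came with overlap, since POLK sgRNA library 3 was below control library 2. ZNF616 and ZNF480 both stood at 0.23, with 8.15 ± 0.31 and 13.1 ± 1 CPM in POLK sgRNA libraries and 6.92 ± 0.16 and 11.2 ± 0.17 CPM in control libraries. In each of these 18 members the POLK sgRNA mean was the higher one.

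ZNF610, ZNF534 and ZNF578 had too few counts for the filter. ZNF610 summed to 5 counts over the POLK sgRNA libraries and 14 over the control libraries, a depth-scaled ratio of 0.34 (exact 95% interval 0.0958 to 0.998, counting error only). It was the member with the lower level in POLK sgRNA cells. ZNF534 summed to 11 and 1 counts in POLK sgRNA and control libraries, a ratio of 10.5 (1.52 to 451), and ZNF578 to 28 and 6 counts, a ratio of 4.44 (1.8 to 13.1). The intervals pool the libraries of a group and leave out the spread between them, such as 17, 4 and 7 counts for ZNF578 in POLK sgRNA libraries. As the members were selected on this contrast, the intervals are not read as tests. In every library each of these 3 genes stayed under 0.3 CPM.

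Per kilobase of exon, the members' levels covered a wide range. ZNF480 was the most abundant of those tested, at 2.72 CPM per kb in POLK sgRNA libraries and 2.32 CPM per kb in control libraries, followed by ZNF614 at 2.24 and 2.08 CPM per kb. ZNF665 was the lowest in POLK sgRNA libraries, at 0.13 CPM per kb, against 0.0449 CPM per kb in control libraries, and ZNF415 was the lowest in control libraries, at 0.0104 CPM per kb, against 0.221 CPM per kb in POLK sgRNA libraries. Fold changes were larger among members with low levels. Members at or above the median level of 5.59 CPM had a median log2 fold change of 0.36 (18 genes) and those below it 0.72 (17 genes). Other zinc finger genes split at the same level had 0.03 (283 genes) and 0.22 (160 genes), and all genes tested 0.01 and 0.03. The larger values at low level were therefore also seen in zinc finger genes outside the cluster.

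Fold changes varied along the cluster. When the members were cut by order into 3 stretches, the 12 from ZNF577 to ZNF480 had a median log2 fold change of 0.26, the 10 tested from ZNF610 to ZNF320 had 0.64, and the 13 from ZNF888 to ZNF331 had 0.43. Values within each stretch varied, and ZNF816 and ZNF160, with 0.19 and 0.15, lie next to ZNF415. The members on the plus strand had a median of 0.37 and those on the minus strand 0.43.

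**Figure D2:**
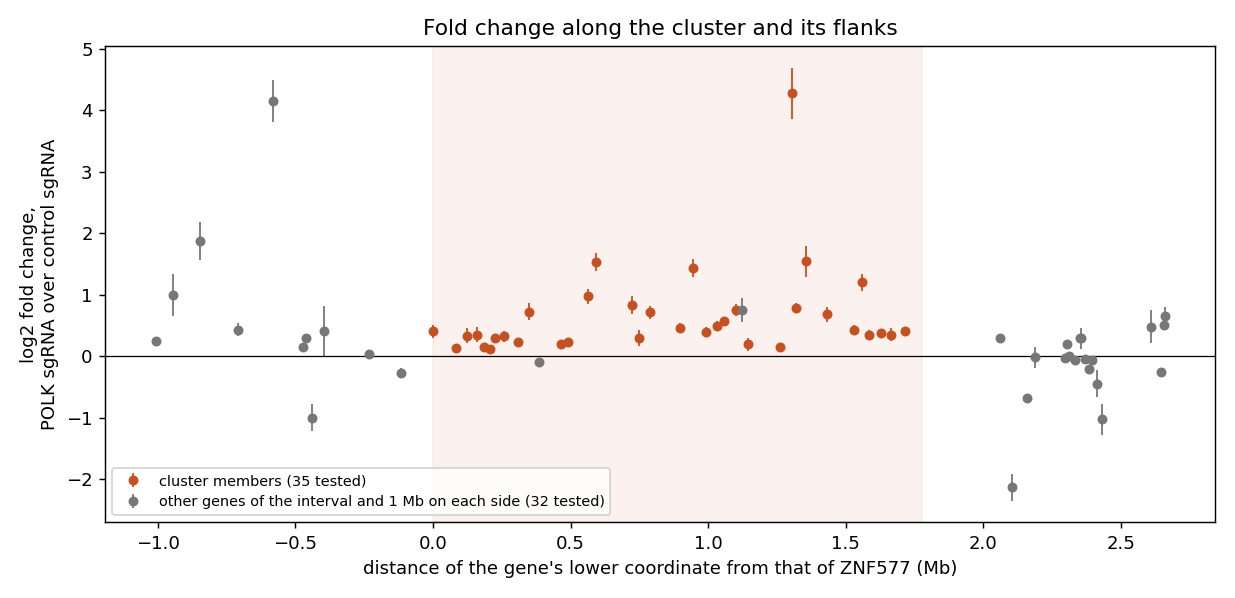
Log2 fold change, POLK sgRNA over control sgRNA, of the 35 tested members and of 32 other tested genes in the interval and 1 Mb on each side, against distance from the lower coordinate of ZNF577 in Mb; bars are standard errors and the shaded band runs from ZNF577 to ZNF331. All 35 tested members lie above 0 inside the band, while genes on both sides of it are spread above and below 0.

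Other genes of the interval and of the 1 Mb on either side moved in both directions. Of 32 tested, 12 were higher (37.5%) and 11 lower (34.4%) at a Benjamini-Hochberg adjusted p under 0.05 by edgeR's quasi-likelihood test. These pooled shares were close to the 32.8% and 31.6% over all genes. The median log2 fold change of the 32 genes was 0.09. The sides differed. Before ZNF577, 6 of 11 were higher (54.5%) and 2 lower (18.2%), with a median of 0.29. Beyond ZNF331, 5 of 19 were higher (26.3%) and 8 lower (42.1%), with a median of -0.03. The sides were not tested against each other. Within the cluster, PPP2R1A, the scaffold subunit of protein phosphatase PP2A, fell to 328 CPM in POLK sgRNA libraries, against 351 CPM in control libraries (log2 fold change -0.10 ± 0.02, adjusted p = 0.00017, edgeR). The readthrough gene ZNF816-ZNF321P, which has the promoter window of ZNF816 and may share reads with it, rose by 0.75 ± 0.20 on the log2 scale (adjusted p = 0.0016, edgeR). ZNF175, the nearest numbered zinc finger gene before ZNF577, was outside the listed members, at 7.67 CPM in POLK sgRNA libraries and 7.5 CPM in control libraries (log2 fold change 0.03 ± 0.07, adjusted p = 0.69, edgeR). Between ZNF175 and ZNF577, SPACA6, a sperm protein gene, had a log2 fold change of -0.28 (adjusted p = 0.0019, edgeR). Beyond ZNF331, the first tested gene, MYADM, had a log2 fold change of 0.30 (adjusted p = 2.7e-11, edgeR), and the next, the calcium channel gamma subunit genes CACNG7 and CACNG8, had -2.13 and -0.68, both past the test. Further out on that side, TFPT (0.20), LENG1 (0.29), LENG9 (0.51) and CDC42EP5 (0.65) rose, CNOT3 (-0.06), MBOAT7 (-0.05), TSEN34 (-0.21), RPS9 (-0.07), LILRA6 (-1.03) and LENG8 (-0.26) fell, and CACNG6 (-0.02), NDUFA3 (-0.03), PRPF31 (0.00), TMC4 (0.29), LILRB3 (-0.45) and TTYH1 (0.48) did not pass. On the side of ZNF577, C19orf48 (0.24), KLK2 (0.99), KLK6 (1.87), CTU1 (0.43) and ETFB (0.29) rose, CLDND2 fell to 0.707 CPM in POLK sgRNA libraries, against 1.39 CPM in control libraries, and VSIG10L (0.14) and SIGLEC10 (0.41) did not pass. CD33, a sialic acid receptor of myeloid cells, was at 1.13 CPM in POLK sgRNA libraries and 0.0642 CPM in control libraries, a log2 fold change of 4.14 ± 0.34. Neighbouring genes thus included larger changes than most members in both directions.

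Among other genes named ZNF with a number, 443 were tested, of which 172 were higher (38.8%) and 82 lower (18.5%) by edgeR's quasi-likelihood test at an adjusted p under 0.05, with a median log2 fold change of 0.09. At least 2-fold higher were 19 of them, beside 3.63% of all genes tested. On chromosome 19, 93 of 201 others were higher (46.3%) and 21 lower (10.4%), with a median of 0.16, and on other chromosomes 79 of 242 were higher (32.6%) and 61 lower (25.2%), with a median of 0.03. The members' median of 0.40 was matched by 1 other run of zinc finger genes on chromosome 19. In the run from ZNF565 to ZNF573, 21 of 25 tested genes were higher and 1 lower, with a median of 0.42. The run from ZNF302 to ZNF792 had 4 of 5 higher and a median of 0.28, and the other 6 runs had medians of -0.03 to 0.22. No test of a difference between runs was made. Among single zinc finger genes outside the cluster, ZNF835 (log2 fold change 3.13), ZNF676 (3.10) and ZNF536 (3.08), all on chromosome 19, rose further than every member except ZNF415, and ZNF469 (-1.24), ZNF521 (-1.12) and ZNF326 (-0.89) fell.

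**Figure D3:**
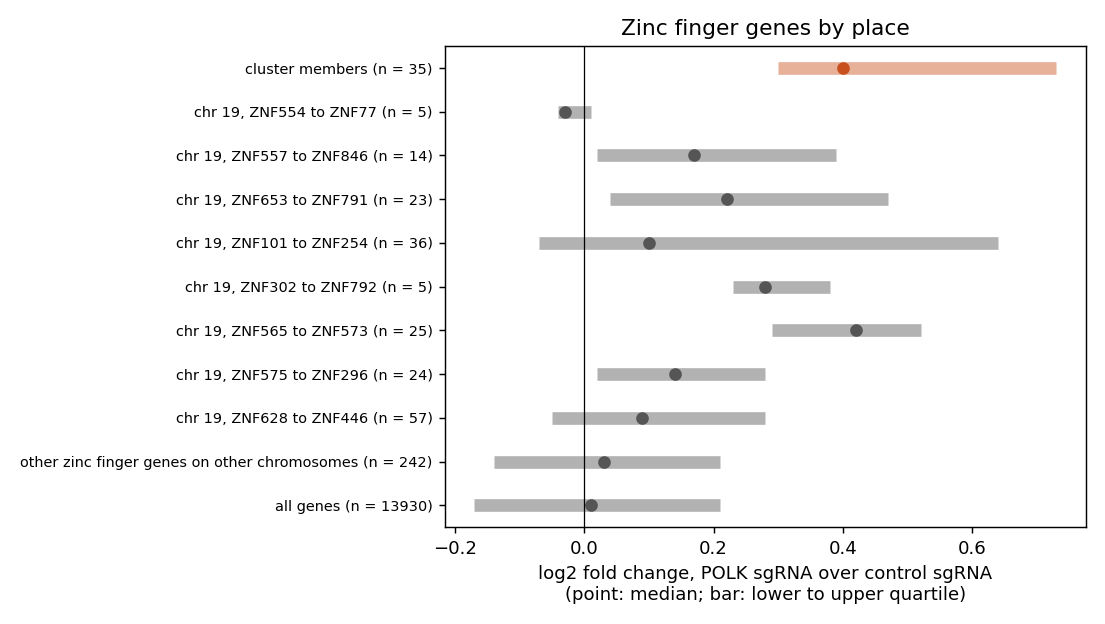
Median (point) and quartiles (bar) of log2 fold change, POLK sgRNA over control sgRNA, for the cluster members, 8 other runs of zinc finger genes on chromosome 19, zinc finger genes on other chromosomes and all genes tested, with the number of genes in parentheses. The medians of the members (0.40) and of the run from ZNF565 to ZNF573 (0.42) lie farthest to the right.

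The partners through which KRAB zinc finger proteins repress genes were mostly a little lower. Of 38 genes of this machinery, 7 were higher and 22 lower at an adjusted p under 0.05 by edgeR's quasi-likelihood test, where 32.8% and 31.6% of all genes tested were, with a median log2 fold change of -0.10. TRIM28, the co-repressor that binds the KRAB domain, was at 813 CPM in POLK sgRNA libraries and 804 CPM in control libraries, a log2 fold change of 0.02 that did not pass (adjusted p = 0.57, edgeR). SETDB1, the methyltransferase it recruits, fell to 56.9 CPM in POLK sgRNA libraries, against 61.6 CPM in control libraries (log2 fold change -0.11, adjusted p = 0.0016, edgeR). Of 8 NuRD genes, 6 fell (CHD3, CHD4, HDAC1, HDAC2, RBBP4 and MTA2), RBBP7 rose by 0.07 on the log2 scale and MTA1 had -0.04, which did not pass. In the HUSH silencing complex, FAM208A (TASOR) rose by 0.18 and PPHLN1 fell by 0.17 on the log2 scale, and MPHOSPH8 had -0.04, which did not pass. RBBP4, a histone-binding subunit of NuRD, was at 178 ± 3.3 CPM in POLK sgRNA libraries and 247 ± 2.8 CPM in control libraries (SD, n = 3 each; log2 fold change -0.47, adjusted p = 2.5e-18, edgeR). CHD3, a NuRD remodeller, was at 206 ± 7.3 and 239 ± 2.4 CPM (log2 fold change -0.21, adjusted p = 3.9e-09, edgeR). DNMT3B, a de novo DNA methyltransferase, went the other way, at 11 ± 0.61 CPM in POLK sgRNA libraries and 6.08 ± 0.44 CPM in control libraries (log2 fold change 0.84, adjusted p = 2e-12, edgeR), as did SUV39H1, a histone H3 methyltransferase, at 50.6 ± 1.1 and 39.6 ± 1.1 CPM (log2 fold change 0.35, adjusted p = 7.2e-11, edgeR).

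The members share promoter sequence that the choice of members did not use. RefSeq promoter windows of 300 bases (GRCh38.p14) were matched by symbol for 31 of the 38 members, 44 windows in all. Their median GC content was 62%, and the ratio of observed to expected CpG was 0.828, against 0.781 for other zinc finger genes and 0.579 for all genes with a window. The word CCGGAAG contains GGAA, the core of ETS factor motifs. It occurred on either strand (CTTCCGG on the reverse) in 21 of 31 members (67.7%), in 157 of 393 other zinc finger genes (39.9%) and in 3321 of 27305 genes (12.2%). It was the closeness to the start that the members shared. In 19 of 31 members (61.3%) the word began on the gene's own strand between bases 250 and 270 of the window, in which the annotated start is the base after base 250, against 8 of 393 other zinc finger genes (2.04%) and 224 of 27305 genes (0.82%). It was in no member window on the reverse strand there. The word and these bounds were chosen after the sequences had been seen. ZNF816-ZNF321P, which has the window of ZNF816, is among the 8 other zinc finger genes. In the member stretches printed here, 30 bases before the word and 20 after it are shown so that the shared bases around it can be compared, with the word in capitals.
ZNF841: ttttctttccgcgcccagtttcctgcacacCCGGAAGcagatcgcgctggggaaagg
ZNF880: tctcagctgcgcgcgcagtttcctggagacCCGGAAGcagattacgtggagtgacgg
ZNF528: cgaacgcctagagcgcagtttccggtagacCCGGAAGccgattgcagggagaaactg
ZNF808: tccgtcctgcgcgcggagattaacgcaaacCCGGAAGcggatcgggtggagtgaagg
ZNF611: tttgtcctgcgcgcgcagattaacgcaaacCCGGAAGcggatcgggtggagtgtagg
ZNF160: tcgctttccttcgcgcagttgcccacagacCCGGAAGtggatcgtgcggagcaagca
ZNF347: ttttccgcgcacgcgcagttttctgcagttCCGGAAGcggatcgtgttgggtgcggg
ZNF677: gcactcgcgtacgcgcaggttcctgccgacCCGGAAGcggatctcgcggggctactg
ZNF845: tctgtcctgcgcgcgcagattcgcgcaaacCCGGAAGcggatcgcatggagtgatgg
ZNF813: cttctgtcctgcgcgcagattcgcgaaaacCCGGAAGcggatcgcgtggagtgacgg
On the plus strand these are ZNF880 chr19:52369907-52369963, ZNF528 chr19:52397833-52397889, ZNF808 chr19:52527642-52527698, ZNF845 chr19:53333723-53333779 and ZNF813 chr19:53467719-53467775. On the minus strand they are ZNF841 chr19:52095735-52095791, ZNF611 chr19:52735014-52735070, ZNF160 chr19:53103392-53103448, ZNF347 chr19:53159023-53159079 and ZNF677 chr19:53254844-53254900. All are read 5′ to 3′ along the gene.

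Outside the word itself, pairs of the 19 member stretches were identical at a median of 60% of 50 bases (36% to 92% over 171 pairs), beside 30% between member stretches and those of the 8 other zinc finger genes and 28% between members and 202 stretches of other genes. At 25 of the 50 positions, at least 15 of the 19 members had the same base. The 5 members at the start of the cluster with a window, from ZNF577 to ZNF614, did not hold the word. ZNF614, with the smallest fold change, is printed for that contrast, at chr19:52028330-52028629 on the minus strand, beside ZNF528, at chr19:52397599-52397898 on the plus strand, which holds the word at bases 214 and 265 and was 2.89-fold higher.
ZNF614: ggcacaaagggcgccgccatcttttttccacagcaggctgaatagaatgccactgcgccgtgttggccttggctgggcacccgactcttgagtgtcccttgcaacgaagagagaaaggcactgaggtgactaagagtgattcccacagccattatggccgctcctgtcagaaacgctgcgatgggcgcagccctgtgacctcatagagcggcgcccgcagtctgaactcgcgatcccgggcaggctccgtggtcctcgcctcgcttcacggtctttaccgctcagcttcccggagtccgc
ZNF528: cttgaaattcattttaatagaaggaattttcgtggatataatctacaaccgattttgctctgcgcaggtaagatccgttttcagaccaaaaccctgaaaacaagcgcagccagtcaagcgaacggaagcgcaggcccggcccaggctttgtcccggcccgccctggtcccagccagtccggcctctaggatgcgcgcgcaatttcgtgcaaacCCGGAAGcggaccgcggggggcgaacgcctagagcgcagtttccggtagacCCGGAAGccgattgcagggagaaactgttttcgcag
Not all members were like this pair. ZNF160 and ZNF766 hold the word, with log2 fold changes of 0.15 and 0.20, and ZNF415, with 4.27, does not. Sets of members with and without the word had similar median fold changes, and no test between them was made. The median log2 fold change was 0.43 over the 19 tested members whose windows hold CCGGAAG at any place. It was 0.38 over the 10 tested members whose windows do not, ZNF415 with its near match among them. These sets therefore cannot show whether the word and fold change are related. Of 5 other words searched on both strands, GGGCGG was in 83.9% of member genes, 66.9% of other zinc finger genes and 48.3% of all genes, and CCAAT in 29%, 54.7% and 39.7%. TATAAA was in 3.23%, 5.6% and 14%, ATGGCG in 25.8%, 19.3% and 12.7%, and TGACG in 45.2%, 37.9% and 28.4%. A match describes these letters and does not show a bound site.

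**Figure D4:**
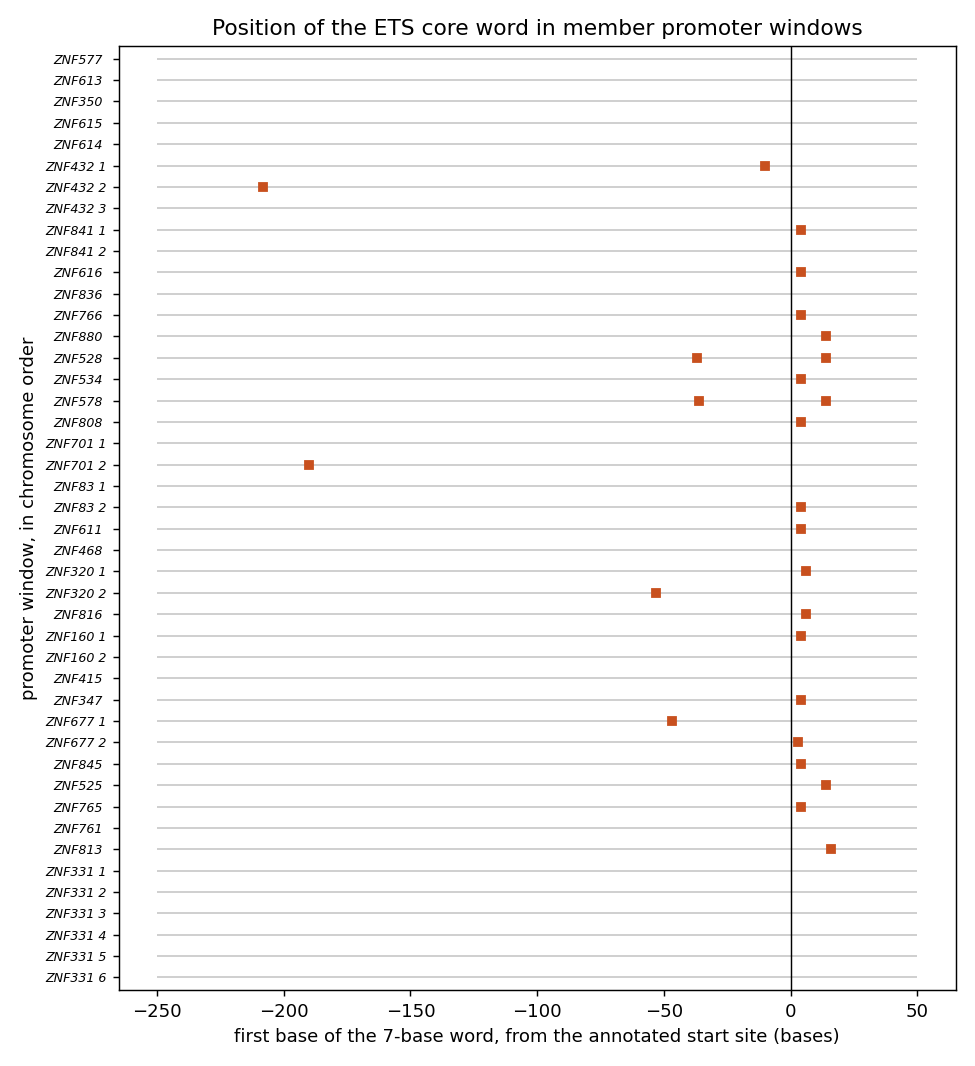
Position of CCGGAAG in the 44 promoter windows of 31 members, one line per window in chromosome order, as the first base of the word in bases from the annotated start site (0). In 19 windows the word begins between bases 250 and 270 of the window, at the start or just after it, and windows of the members from ZNF577 to ZNF614 hold none.

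Reads may have been split between members that are close paralogs, or between members and other genes that share sequence. With windows of 75 bases of the longest coding transcript, 19 members shared under 1% of windows with any other gene, whereas ZNF468 shared 99.2% and ZNF320 99.5%, almost all with each other, and ZNF578 shared 36.1%, ZNF808 21.3%, ZNF836 11.8%, ZNF701 11.7% and ZNF765 11.2%. Much of this was with genes that are not members for ZNF578 (33.4% with AC022150.3), ZNF836 (11.8% with AC011468.2) and ZNF701 (8.97% with AC022150.1). ZNF808 shared most with a member, ZNF701 (16.1%). In addition, 13 members overlap another member on the same strand in the annotation, in 7 pairs. The separate values of ZNF468 and ZNF320 are therefore uncertain. The median log2 fold change was 0.35 over the 17 tested members that shared under 1% and 0.45 over the 18 others.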

How the data were processed

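RNA from 6 A375 libraries, 3 per group, was made into libraries with the TruSeq RNA V2 kit, per the labels' protocols; that kit keeps no strand information. FastQC, Trimmomatic, STAR, DESeq2 and the build GRCh38 are named in the submitters' processing notes; the sources used here give no counting tool, annotation or versions. Raw counts per gene (16934 genes), not normalized, were deposited by the authors. Samples were grouped by the sgRNA in the labels.

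From these counts, in R 4.3.3, edgeR 4.0.16's filterByExpr (minimum count 10, minimum total 15) kept 13930 genes (82.3%). Libraries were scaled by TMM and compared with the robust quasi-likelihood F test (two-sided, without covariates). P-values were adjusted by Benjamini-Hochberg over every tested gene, and 0.05 was the threshold. The procedure was tested on simulated data. Intervals cover counting error only. DESeq2 1.42.0 and limma 3.58.1 (voom) were alternatives, with other scalings, filters, a replicate block and each library left out.

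The members, gene lists and tests were chosen with earlier results of these data known. Values per library are given for the 6 tested members with the highest and the 6 with the lowest log2 fold change and for ZNF350, ZNF331, ZNF808, ZNF649, ZNF677, ZNF160, ZNF415 and ZNF83; ZNF845 and ZNF701 were added after their values were seen; the other zinc finger genes named are the 3 highest and 3 lowest without overlap between the groups, at a mean CPM of 1 or more and past the threshold. Every tested neighbouring gene is named; of the 38 co-repressor genes, TRIM28, SETDB1 and the 4 others with the smallest p were named by rule, and NuRD and HUSH genes after their values were seen; some genes of this list are not reported here. Runs of zinc finger genes were broken at gaps of 1 Mb and needed 5 genes. Positions came from GENCODE 29.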

Additional observations from a re-analysis of the deposited data

How the results depend on the processing

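The 35 tested members kept their direction under the alternatives run, with 453 of 453 fitted values above 0; ZNF610, fitted when no filter was used, is not among them. As the members were selected on this contrast in the same 6 libraries, their counts under other settings describe the settings and do not support the members. The count called higher, 31 by edgeR, was 27 with DESeq2 and 30 with limma-voom. It was 29 of 33 with a filter on a mean of 1 CPM and 33 of 38 with no filter. When 1 library was left out, it was 28 to 32. The median log2 fold change was 0.38 to 0.43 over these settings. The number of all genes called changed as well. It was below that of the main fit in each direction with DESeq2, limma-voom, the 1 CPM filter and any library left out. With no filter it was above that of the main fit in each direction. Leaving out 1 library gave 153 to 168 other zinc finger genes higher and 68 to 75 lower, 7 co-repressor genes higher and 20 to 22 lower, 11 to 14 neighbouring genes higher and 9 to 11 lower, and a POLK log2 fold change of -0.40 to -0.32. Library numbers do not pair the samples, since deviations from the group means correlated at -0.0133, -0.0361 and 0.0132 between libraries of the same number; with the replicate number as a block, 31 members were called higher, with a median of 0.39. Named neighbours with a narrow call did not keep it: MBOAT7 and CNOT3 lost theirs under several settings, CTU1 under the replicate block, KLK2 with DESeq2 and without POLK sgRNA library 1, and RPS9 without control library 3. Counts under 10 in most or all libraries limit what can be said of ZNF610, ZNF534 and ZNF578. The same holds for the control level of ZNF415, with counts under 10 in every control library.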
